A study of Mus musculus with 6 samples.

Results

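Rod bipolar nuclei were examined in single-nucleus RNA-seq of degenerating mouse retina. The nuclei were chosen by their UMI counts of marker genes, since no per-nucleus annotation was used here. Nuclei passed when they held over 500 UMIs (unique molecular identifiers, 1 per captured RNA molecule), 200 or more genes, and less than 5% of their UMIs on mitochondrial genes, which kept 56205 of 56634 barcodes. A member then needed 2 or more UMIs each of Prkca and Trpm1 and a UMI of at least 1 of Car8, Sebox, Vstm2b, Grm6 and Gpr179. It could hold at most 1 UMI of Grik1 and none of Gad1, Slc6a9, Slc17a6, Abca8a and Arr3. This gate took 2321 nuclei, 4.13% of those kept, with 1165 from saline and 1156 from IL-27 libraries. All 6 libraries came from retinas of rd10 mice, strain B6.CXB1-Pde6b-rd10/J, which carry a mutation in the rod phosphodiesterase gene Pde6b in every cell, so that each group shares the rod degeneration. Eyes received an intravitreal injection of 20 ng recombinant IL-27 or of saline at postnatal day 18, and retinas were frozen at postnatal day 20. Each group had 3 libraries, saline replicates 1, 2 and 6 and IL-27 replicates 4, 5 and 10. No wild-type or uninjected retina was part of the comparison, and the sources used here do not say whether the 3 retinas of a group came from separate litters, so the p-values measure only the spread between these libraries. The questions were what rod bipolar nuclei express in this retina, where they differ from the other bipolar nuclei, and whether their transcripts differed 2 days after IL-27.

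Rod bipolar cells are the only bipolar type that collects mainly from rods, and they pass the rod signal to AII amacrine cells. Their dendrites hold the metabotropic glutamate receptor mGluR6 (Grm6), which acts through the G protein Gαo and a set of regulatory proteins on the cation channel TRPM1, so that the cell depolarises when light stops glutamate release from rods. ON cone bipolar cells share this cascade, whereas OFF bipolar cells use ionotropic glutamate receptors instead. Protein kinase C alpha (Prkca) is the classical marker of rod bipolar cells. IL-27 is a cytokine of the IL-6 and IL-12 family, and its receptor, Il27ra with Il6st (gp130), acts through JAK kinases on STAT transcription factors.

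The values that chose the nuclei are given as a description. The median member held 51 UMIs of Prkca, 21 of Trpm1, 3 of Car8 and 2 each of Vstm2b, Grm6 and Gpr179, while 13.9% had a UMI of Sebox. Just inside the gate, 101 members had exactly 2 UMIs of Prkca and 111 exactly 2 of Trpm1. A single one of the 5 further markers carried 141 members through, whereas 1865 held 3 or more of them and 185 held all 5. Just outside, 267 nuclei failed with 1 UMI of Prkca, 229 with 1 of Trpm1, 298 with 2 of Grik1, and 79 for want of all 5 markers. A further 1147 of 3468 nuclei that met the positive conditions were left out for a UMI of an excluded gene. The doublet caller Scrublet gave each kept nucleus a score, and the 8% with the highest scores in each library were marked. That share was set in advance and is not a measured doublet rate. Among the members 288 (12.4%) were marked, and they stayed in the main analysis.

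Markers that the gate did not use were checked against the label, in CPM, which are UMI counts of the summed members scaled to one common total per library. Pcp2, the modulator of Gαo that marks ON bipolar cells, stood at 646 to 868 CPM (median 733) over the 6 libraries. Isl1, the LIM factor of ON bipolar cells, stood at 690.5 to 879 CPM (median 741). Rgs11, Gng13, Nyx, Bhlhe23, Cabp5, Gabrr1 and Gabrr2 were present in every library too, while Lrit3 stayed at 2.11 to 6.13 CPM (median 3.41). Presence alone does not separate rod bipolar from other bipolar nuclei. Against the ON cone bipolar nuclei described below, Pcp2, Rgs11, Bhlhe23 and Gabrr1 were higher, Nyx and Gabrr2 lower, and Gng13 not called. One feature went against a single cell type. The Prkca share of a nucleus fell into separate ranges, and 376 members (16.2%, 14.6 to 17.3% per library) held under 0.4% of their UMIs on Prkca, against a median of 1.38% over all members. Only 43 members (1.85%) lay between 0.3 and 0.6%. This limit was set after the distribution was seen, so no test was run across it, and no cell type name is given to the Prkca-low nuclei. Every comparison below was also made with the 1945 Prkca-high nuclei alone.

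**Figure D1:**
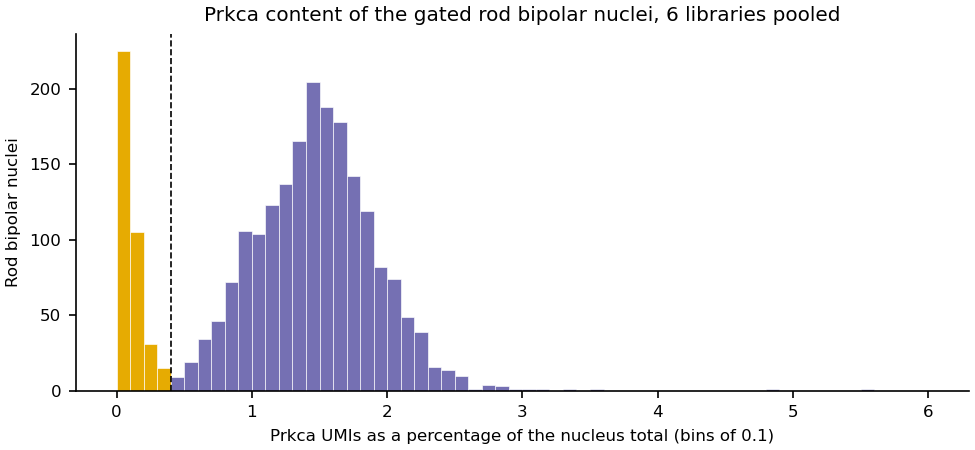
Histogram of the 2321 members by the percentage of their UMIs on Prkca (x axis, bins of 0.1) with the number of nuclei (y axis), 6 libraries pooled. The dashed line at 0.4% separates 376 Prkca-low nuclei in yellow from 1945 Prkca-high nuclei in violet, and few nuclei lie at the line.

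The Prkca-low nuclei differed in many transcripts that the gate did not read. Zfp804b, a zinc-finger protein gene, averaged 14545 ± 1008 CPM in the Prkca-low nuclei and 828 ± 127 CPM in the Prkca-high nuclei (SD, 6 libraries), beside 14639 CPM in ON cone bipolar nuclei. Cntn5, a contactin adhesion molecule, averaged 8755 ± 1028 CPM in the Prkca-low nuclei and 207 ± 92.4 CPM in the Prkca-high nuclei, and Tenm2, a teneurin, 4813 ± 763 CPM in the Prkca-low nuclei and 297 ± 56.6 CPM in the Prkca-high nuclei. Both adhesion genes were thus high in the smaller set. Csmd1, a membrane complement regulator, averaged 1794 ± 351 CPM in the Prkca-low nuclei and 49.4 ± 17.5 CPM in the Prkca-high nuclei, but only 72.0 CPM in ON cone bipolar nuclei, so the Prkca-low nuclei did not match the average ON cone bipolar nucleus in this gene. Other genes ran the opposite way. Pcp2 averaged 326 ± 49.8 CPM in the Prkca-low nuclei and 867 ± 81.7 CPM in the Prkca-high nuclei, and Gpc6, a glypican, 1032 ± 134 CPM in the Prkca-low nuclei and 8014 ± 364 CPM in the Prkca-high nuclei. Among the gate genes, Trpm1 averaged 984 CPM in the Prkca-low, 6113 CPM in the Prkca-high and 1806 CPM in ON cone bipolar nuclei. The cone bipolar marker Scgn averaged 129, 14.5 and 102 CPM in that order. The gate gene Car8 averaged 120 CPM in the Prkca-low and 982 CPM in the Prkca-high nuclei. The Prkca-low nuclei count as members through the gate alone. By Scrublet score 18.9% of the Prkca-low and 11.2% of the Prkca-high nuclei were marked, beside the set 8% of all kept nuclei. Marking was uneven by treatment. After saline (replicates 1, 2, 6) 7 of 64, 7 of 60 and 9 of 63 Prkca-low nuclei were marked. After IL-27 (replicates 4, 5, 10) these were 15 of 58, 20 of 77 and 13 of 54, more than after saline in every library. Over all members the marked share was 8.87, 13.3 and 10.1% after saline. After IL-27 it was 14.1, 13.2 and 15.7%, which overlapped the saline range. In every library the Prkca-low nuclei had the higher median UMI count. The 10 cone markers summed to 380.3 CPM over all members and 177 CPM in the Prkca-high nuclei. The part of doublets in the split was not tested.

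The members were spread evenly over the treatments. Each library gave 312 to 447 members and 1421653 to 2017395 UMIs in their sum. They made up 4.22, 4.07 and 4.11% of kept nuclei in saline replicates 1, 2 and 6 and 4.23, 4.84 and 3.32% in IL-27 replicates 4, 5 and 10. The exact 95% binomial intervals, which cover counting error only, ran from 2.97 to 3.70% for IL-27 replicate 10 and from 4.41 to 5.30% for IL-27 replicate 5, the lowest and the highest library. The mean share was 4.13 ± 0.767% with IL-27 and 4.13 ± 0.0769% with saline (SD, n = 3 each, two-sided exact permutation test, p = 1, the smallest possible being 0.1). Among gated bipolar nuclei the share was 48.3 ± 5.30% and 47.2 ± 3.68% (exact p = 0.8). The median UMI count per member was 4108 ± 146 and 4268 ± 164 (exact p = 0.4). In the Prkca-high nuclei it was 3993, 4259 and 4012 in saline replicates 1, 2 and 6 and 3828, 3974.5 and 3913 in IL-27 replicates 4, 5 and 10, so that the IL-27 libraries were all lower (difference -183 UMIs, exact p = 0.1), and with doublets removed the difference was -234 UMIs (exact p = 0.1). A share of nuclei does not tell how many rod bipolar cells a retina held. Across the series, library totals ran from 36678332 to 48260748 UMIs, and median UMIs per kept nucleus were lowest in IL-27 replicate 10 (2898) and highest in saline replicate 1 (3959). Of the kept barcodes, 116 to 134 per library also occurred in another library, and 4 of the 6 libraries had 1 such barcode among the members. Xist stood at 2722 and 2592 CPM in saline replicate 2 and IL-27 replicate 5 and at most 0.559 CPM in the other 4 libraries, so each group had 1 Xist-positive library. In the members, the 16 rod markers summed to 998 CPM in IL-27 replicate 5, 2015 CPM in IL-27 replicate 10 and 1319.9 to 1366 CPM in the other libraries.

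ON cone bipolar nuclei, which share the cascade, were compared first. They were gated in the same way with Trpm1 and a UMI of Grm6, Gpr179 or Isl1, but with at most 1 UMI of Prkca and none of Car8, Sebox or Vstm2b, which gave 1426 nuclei. UMIs were summed per library and tested with the library as a block, leaving out all genes used in any gate. Of 10375 genes tested, 3039 (29.3%) differed at an adjusted p under 0.05, with 1417 (13.7%) higher and 1622 (15.6%) lower in rod bipolar nuclei. With the Prkca-high nuclei alone, 3402 of 10010 (34.0%) differed. The gates fix the populations, so these folds describe what else goes with the marker genes.

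The largest difference was in Lrrtm4 (ENSMUSG00000052581, chromosome 6, 80018877 to 80810143, plus strand, GRCm38), which encodes a synaptic adhesion protein. It stood at 4939.5 to 5835 CPM (median 5564) in rod bipolar and 32.2 to 69.3 CPM (median 47.0) in ON cone bipolar nuclei over the 6 libraries, a log2 fold change of 6.80 ± 0.09 (SE, adjusted p = 6.69e-28). The lowest rod bipolar library thus lay far above the highest ON cone library. Cep112, a centrosomal protein gene (ENSMUSG00000020728, chromosome 11, 108425192 to 108860615, plus strand), stood at 857 to 1187 CPM (median 1061) against 7.06 to 17.9 CPM (median 10.4), a log2 fold change of 6.60 ± 0.10 (adjusted p = 2.13e-26). Nebl, which encodes the actin-binding protein nebulette, stood at 1330.1 to 1531 CPM (median 1389) against 28.0 to 58.9 CPM (median 45.4), a log2 fold change of 4.95. Log2 fold changes were 5.36 for Kcnmb2, a beta subunit of the BK potassium channel, 5.45 for the receptor phosphatase Ptprr, 5.30 for the beta1-adrenergic receptor Adrb1, 4.86 for Il1rap, the accessory chain of the IL-1 receptor, 5.10 for the sorting receptor Sorcs3 and 4.76 for Arhgef28, a guanine nucleotide exchange factor. Tmem196 (5.28) and Wscd2 (4.76) completed the 11 genes given. In the Prkca-high nuclei all 11 had larger log2 fold changes, from 5.01 to 7.14.

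The 12 genes with the largest fold change downward are given next. Cdh9, a cadherin (ENSMUSG00000025370, chromosome 15, 16728756 to 16857094), stood at 88.4 to 138 CPM (median 107) against 1393 to 1575 CPM (median 1441), a log2 fold change of -3.72 ± 0.059 (adjusted p = 2.13e-26). Il1rapl2, an IL-1 receptor-like synaptic protein, stood at 88.4 to 238 CPM (median 195) against 2502 to 3183 CPM (median 2947), a log2 fold change of -3.96. The secreted protein reelin (Reln) stood at 133 to 232 CPM (median 163) against 1798 to 2125 CPM (median 2078), a log2 fold change of -3.57. None of these ranges overlapped. The transcription factor Sox6 stood at 44.2 to 114 CPM (median 75.0) against 961 to 1408 CPM (median 1174), a log2 fold change of -3.92. The other 8 were Col8a1 (-4.02) and Smoc2 (-3.62) of the extracellular matrix, Hs3st4 (-3.78) and Sec1 (-3.56), which modify sugar chains, the actin regulators Palld (-3.78) and Mical2 (-3.44), Tcerg1l (-3.70), and the phosphatase Ptprg (-3.32). Much of their remaining level lay in the Prkca-low nuclei, for without these the 12 log2 fold changes ran from -6.71 to -4.85. All genes named here kept their call in every alternative setting tried. The rod markers were also higher in rod bipolar nuclei, with 9 of 15 called higher and 1 lower (median log2 0.54, all genes 0.0012, 13.7% higher and 15.6% lower). The part of rod RNA in other genes was not tested.

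**Figure D2:**
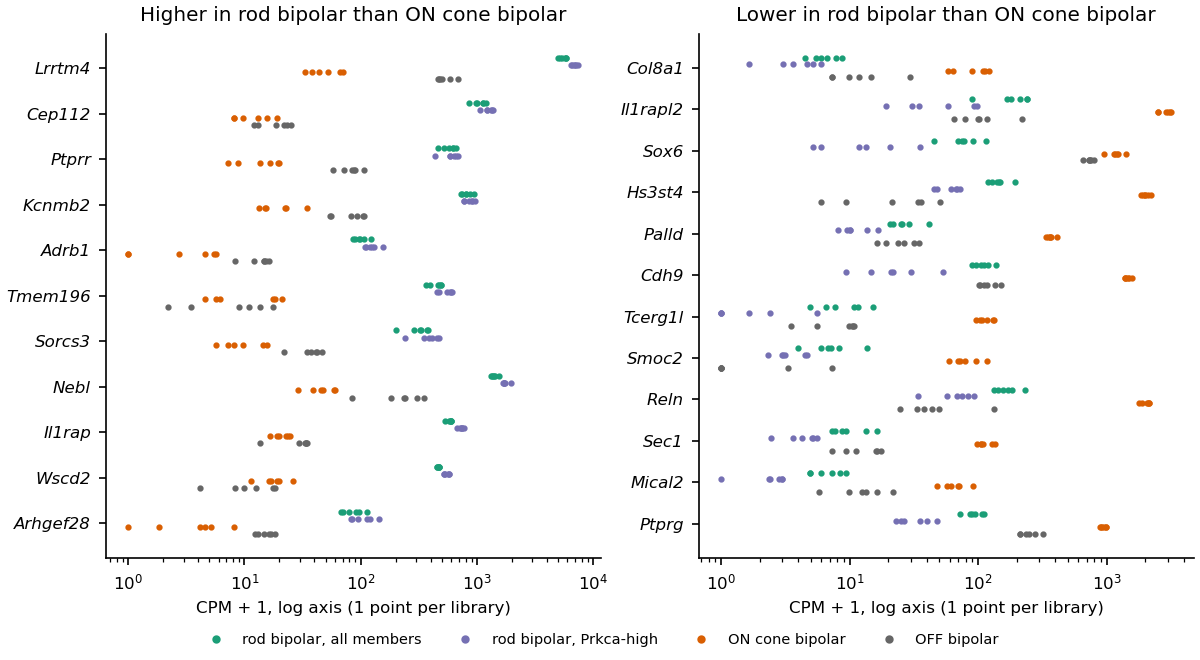
CPM + 1 on a log axis (x) for 11 genes higher (left) and 12 lower (right) in rod bipolar than in ON cone bipolar nuclei, taken from those with the largest fold change (y), 1 point per library. Rod bipolar points lie away from ON cone points for every gene, and the Prkca-high nuclei lie further from them than all members do in the right panel; OFF bipolar nuclei are shown for reference.

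OFF bipolar nuclei were compared in the same way. The 1116 nuclei had 2 or more UMIs of Grik1, a UMI of at least 1 of 3 further bipolar genes, Vsx1 and Gsg1 among them, and at most 1 UMI each of Trpm1 and Prkca. Of 10021 genes tested, 3324 (33.2%) differed, 1586 (15.8%) higher and 1738 (17.3%) lower, and in the Prkca-high nuclei 3504 of 9468 (37.0%). Both comparisons use the same rod bipolar sums, and 949 genes were higher and 892 lower in both. Prkg1, the cGMP-dependent protein kinase, stood at 6086 to 7194 CPM (median 6601) in rod bipolar and 145 to 260.2 CPM (median 209) in OFF bipolar nuclei, a log2 fold change of 4.96 ± 0.092 (adjusted p = 1.25e-20), and its fold over ON cone bipolar nuclei was smaller (log2 1.32). Drd2, the dopamine D2 receptor, stood at 106 to 149.7 CPM (median 128) against 1.21 to 11.1 CPM (median 2.25), a log2 fold change of 5.20, with 0.52 over ON cone bipolar. Chst9, a sulfotransferase, stood at 1116 to 1319.6 CPM (median 1255) against 19.8 to 90.4 CPM (median 37.0), a log2 fold change of 4.76, with 1.55 over ON cone bipolar. For these 3 genes the log2 fold change was thus smaller against ON cone than against OFF nuclei. By contrast, Cep112 (5.78), Tmem196 (5.69) and Wscd2 (5.33) were among the 12 leading genes in both comparisons. The rest were Kcnt2 (5.08), a sodium-activated potassium channel, Vit (5.25), the anoctamin gene Ano3 (4.95), the transporter gene Slco5a1 (4.89), the small GTPase Rhoj (4.74) and the guidance factor Sema3e (4.71).

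Of the genes lower than in OFF bipolar nuclei, the 12 with the largest fold change are given. Lama2, a laminin chain, stood at 0 to 2.80 CPM (median 1.19) against 182 to 376 CPM (median 327), a log2 fold change of -7.80 ± 0.16, adjusted p = 5.6e-20. Fezf2, a transcription factor of OFF bipolar development, stood at 0 to 2.64 CPM (median 1.27) against 47.1 to 63.9 CPM (median 55.4), a log2 fold change of -5.37. Nphs1, which encodes nephrin, stood at 0 to 0.703 CPM (median 0.543) against 52.7 to 88.2 CPM (median 71.0). At levels near 0 the fitted fold changes depend on the prior count of the fit. The SE there comes from the test statistic and can fall short of the counting error of so few UMIs. Cntnap5a, a neurexin-related adhesion gene, stood at 19.5 to 59.9 CPM (median 30.6) against 1821 to 2275 CPM (median 1976), a log2 fold change of -5.94, and Kctd16, an auxiliary subunit of GABA-B receptors, at 26.9 to 64.9 CPM (median 37.0) against 1226 to 1509.6 CPM (median 1306), a log2 fold change of -5.12. The secreted factors Tafa4 (-6.73) and Tafa2 (-5.77), the potassium channel Kcnh8 (-6.27), the matrix genes Col11a1 (-5.75) and Adamtsl1 (-5.60), the vesicle priming factor Cadps2 (-5.51) and the synaptic protein Slitrk6 (-5.34) made up the rest. All 24 genes kept their call under every alternative, and of the rod markers 10 of 15 were called higher (median log2 0.75, all genes 0.0082, 15.8% higher).

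The mGluR6 cascade was followed through the 11 of its 15 listed genes that no gate used and that passed the filter. Grm6, Trpm1 and Gpr179 chose the nuclei, and Lrit3 was too low to test. Against OFF bipolar nuclei all 11 were called higher (median log2 2.05, all genes 0.0082, 15.8% higher). Against ON cone bipolar nuclei 6 were higher and 1 lower (median 0.21, all genes 0.0012, 13.7% higher and 15.6% lower). Gnao1, the Gαo subunit, stood at 1111 to 1232 CPM (median 1196) in rod bipolar, 714 to 799 CPM (median 763) in ON cone and 159.7 to 224 CPM (median 187) in OFF bipolar nuclei. Its log2 fold changes were 0.65 (adjusted p = 1.77e-12) and 2.59 (adjusted p = 4.91e-18). The 3 populations did not overlap. Among the other G protein subunits, Gnb3 gave 0.25 and 2.82 and Gng13 0.21 (adjusted p = 0.0975) and 1.75, so that Gng13 was called against OFF nuclei only. The GTPase-activating module that switches off Gαo was uneven. Rgs7 stood at 2927 to 3568 CPM (median 3213) against 769.8 to 892 CPM (median 803) in ON cone and 702 to 838 CPM (median 764) in OFF bipolar nuclei, log2 2.01 and 2.05. Rgs11, its partner in the same module, gave 0.19 (adjusted p = 0.0303) and 1.27, Gnb5 0.15 and 1.55, and the anchor Rgs9bp 0.19 and 0.83. Neither Gnb5 nor Rgs9bp passed the test against ON cone nuclei. Pcp2 stood at 646 to 868 CPM (median 733) against 147 to 178 CPM (median 164) and 27.6 to 62.2 CPM (median 47.1), log2 2.22 and 4.05. Tpbg, which encodes the trophoblast glycoprotein found in rod bipolar cells, was low but selective, at 18.3 to 35.1 CPM (median 27.9) against 0.902 to 4.15 CPM (median 1.66) and 0 to 1.59 CPM (median 0.604), log2 fold changes of 3.65 and 5.23. Nyx, which encodes nyctalopin, the protein that holds TRPM1 at the dendrite tip, was the 1 member lower than in ON cone nuclei. It stood at 45.4 to 66.9 CPM (median 53.9) against 65.9 to 105 CPM (median 83.6) (log2 -0.56, adjusted p = 8.91e-06, and -0.83 in the Prkca-high nuclei), but above the 4.76 to 8.82 CPM (median 7.55) of OFF nuclei (log2 2.87).

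**Figure D3:**
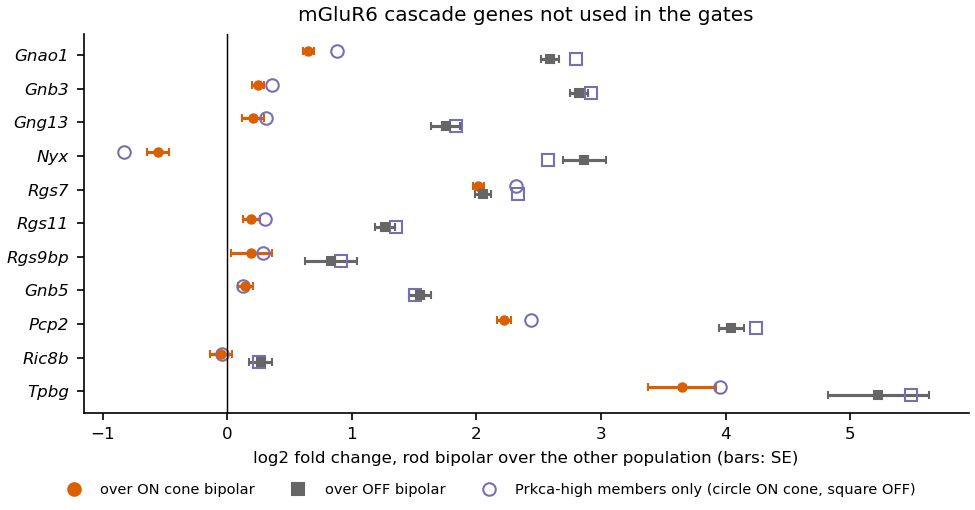
Log2 fold change (x axis) of 11 mGluR6 cascade genes (y axis) in rod bipolar nuclei over ON cone bipolar nuclei (orange circles) and over OFF bipolar nuclei (grey squares), with SE bars, and open symbols for Prkca-high members. All 11 lie above 0 against OFF nuclei, whereas Rgs7, Pcp2 and Tpbg stand well above 0 and Nyx below 0 against ON cone nuclei.

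Of the bipolar transcription factors outside the gates, 18 were tested against ON cone nuclei. There 5 were higher and 8 lower (median log2 -0.091, all genes 0.0012, 13.7% higher and 15.6% lower). Of 19 tested against OFF nuclei, 5 were higher and 8 lower (median -0.22, all genes 0.0082, 15.8% higher and 17.3% lower). Prdm8, a factor needed for rod bipolar cells, stood at 137 to 178 CPM (median 166) against 38.2 to 67.2 CPM (median 56.5) and 29.8 to 47.1 CPM (median 36.2), log2 1.57 and 2.08. Bhlhe23, another factor of rod bipolar development, gave 1.38 and 2.37. Both were higher in the members than in either neighbour. St18, a zinc-finger factor, was shared by the ON types, with -0.019 against ON cone (adjusted p = 0.837) and 4.12 against OFF nuclei. Rorb and the photoreceptor and bipolar factor Crx were higher against both, with 0.40 and 0.35 for Rorb and 0.29 and 0.70 for Crx. Otx2, which drives both fates, gave -0.24 against ON cone and 0.14 (not called) against OFF nuclei. Among the nuclear factor I genes, Nfix was lower than in ON cone nuclei only (-1.63 and -0.22, the latter not called), and Nfia was lower against both. Nfia stood at 177 to 222 CPM (median 212) against 1412 to 1731 CPM (median 1649) and 565 to 715 CPM (median 644), log2 -2.95 and -1.70, with -4.36 and -3.12 in Prkca-high nuclei. Nfib gave opposite calls by member set against ON cone nuclei, 1.18 over all members and -1.58 in Prkca-high nuclei, so its higher level over all members lay in the 376 Prkca-low nuclei. Against OFF nuclei it was lower in both, -3.65 and -6.39. Ebf1 changed sign in the same way (0.35, not called, and -0.64, called).

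Inhibitory input reaches rod bipolar terminals from amacrine cells through GABA-A, GABA-C and glycine receptors. Of these genes 3 of 14 were called higher and 7 lower against ON cone nuclei (median log2 -0.15, all genes 0.0012, 13.7% higher and 15.6% lower). Against OFF nuclei 1 of 15 was called higher and 11 lower (median -0.99, all genes 0.0082, 15.8% higher and 17.3% lower). Among the GABA-C subunits, Gabrr1 stood at 135 to 159 CPM (median 147) against 84.1 to 104 CPM (median 91.6) in ON cone nuclei (log2 0.69), with no call against OFF nuclei (0.086, adjusted p = 0.471). Gabrr2 stood at 389 to 427 CPM (median 401), below the 831 to 949.8 CPM (median 880.2) of ON cone nuclei (log2 -1.11) and above the 221 to 281 CPM (median 249) of OFF nuclei (log2 0.68). The third such subunit gene, Gabrr3, reversed with the member set, from 0.82 over all members to -2.94 in Prkca-high nuclei against ON cone nuclei. The glycine receptor gene Glra1 ran between its neighbours, at 160.1 to 203 CPM (median 174) against 26.7 to 32.5 CPM (median 30.9) in ON cone and 409 to 520.2 CPM (median 447) in OFF nuclei (log2 2.57 and -1.39), and hardly changed in the Prkca-high nuclei (2.67 and -1.31). The GABA-A subunits Gabrb1 and Gabrb2 were lower against both populations, with Gabrb2 at -1.78 and -2.82.

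Among glutamate receptor genes other than the gate gene Grik1, 6 of 15 were higher and 5 lower than in ON cone nuclei (median log2 0.17, all genes 0.0012, 13.7% higher and 15.6% lower). In the Prkca-high nuclei the split was 2 and 6 of 13. Against OFF nuclei, 3 were higher and 10 lower of 15 (median -1.33, all genes 0.0082, 15.8% higher and 17.3% lower). Gria2, the AMPA receptor subunit that blocks calcium entry, stood at 215 to 282 CPM (median 254) against 1182 to 1336 CPM (median 1255) in ON cone and 911 to 1129 CPM (median 991) in OFF nuclei, log2 -2.30 and -2.05, and -3.82 and -3.59 without the Prkca-low nuclei. Gria1, another AMPA subunit, was higher than in ON cone nuclei (0.80). Over all members the AMPA subunits therefore differed in direction against ON cone nuclei, and Gria4 was lower against both (-0.20 and -1.34). Grm5, a group I metabotropic receptor, stood at 1825 to 2118 CPM (median 2031), slightly under the 2303 to 2791 CPM (median 2466) of ON cone nuclei (log2 -0.29) and far above the 236 to 368 CPM (median 262) of OFF nuclei (log2 2.81). The kainate subunit Grik2 gave 1.06 against ON cone nuclei but 0.13, not called, in Prkca-high nuclei. Grm8 changed sign with the member set (0.35 to -0.40), and Grm7 went from a call at 0.17 to -0.09, not called.

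The output synapse of rod bipolar cells is a ribbon synapse that releases glutamate through L-type calcium channels. Of 25 such genes 6 were higher and 11 lower than in ON cone nuclei (median log2 -0.12, all genes 0.0012, 13.7% higher and 15.6% lower). Against OFF nuclei 3 were higher and 10 lower (median -0.10, all genes 0.0082, 15.8% higher and 17.3% lower). Snap25, the SNARE protein, stood at 1960.4 to 2277 CPM (median 2143) against 1097 to 1412 CPM (median 1287) and 1210.2 to 1641 CPM (median 1419), log2 fold changes of 0.76 and 0.55. Unc13b, a vesicle priming factor, was higher than in ON cone nuclei (0.89) and not called against OFF nuclei (0.073). Complexin genes split, with Cplx3 at 0.43 and Cplx4 at -1.29 against ON cone nuclei. Cabp5, a calcium-binding protein gene, averaged 175 CPM in the Prkca-high nuclei, 180 CPM in ON cone and 243 CPM in OFF nuclei. The ribbon gene Ctbp2 and the active zone genes Rims1 and Erc2 were lower against both populations, with Rims1 at -0.79 and -1.24. The calcium channel subunits Cacna1d (-0.23 and -0.28) and Cacna1f (-0.38 and -0.41) were lower by little, while the auxiliary subunit Cacna2d1 separated the members from OFF nuclei, at 279.6 to 346 CPM (median 322) against 2749 to 3059.7 CPM (median 2959.9), a log2 fold change of -3.23. Cacna2d4, the auxiliary subunit of photoreceptors and bipolar cells, was higher against both (0.24 and 0.59). Slc17a7, the vesicular glutamate transporter, was not called against ON cone nuclei (-0.036).

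Beside Prkca and Car8, which chose the nuclei, 5 of 15 calcium and protein kinase C genes were higher and 9 lower than in ON cone nuclei (median log2 -0.23, all genes 0.0012, 13.7% higher and 15.6% lower). Against OFF nuclei the counts were 7 and 5 (median 0.053, all genes 0.0082, 15.8% higher and 17.3% lower). The other kinase C genes diverged. Prkce stood at 1216 to 1361 CPM (median 1243) against 549 to 643 CPM (median 587) and 355 to 413 CPM (median 376), log2 fold changes of 1.12 and 1.70, whereas Prkcb gave -1.08 and -1.07. The diacylglycerol kinase Dgki was higher against both (0.82 and 1.09). Genes of calcium stores and sodium-calcium exchange were lower, with Ryr2 at -2.38 and -2.73, Itpr1 at -1.91 and -1.20, and Slc8a1 at -2.72 and -1.45. The membrane calcium pump Atp2b1 stood at 1682 to 2105 CPM (median 1799), not called against ON cone nuclei (0.036, adjusted p = 0.618) and higher than in OFF nuclei (1.35). Of potassium and HCN channel genes, 3 of 11 were higher and 6 lower than in ON cone nuclei (median log2 -0.17, all genes 0.0012, 13.7% higher and 15.6% lower). Against OFF nuclei 3 of 12 were higher and 7 lower (median -1.22, all genes 0.0082, 15.8% higher and 17.3% lower). The A-type channel genes Kcnd2 (-3.11 and -2.05) and Kcnd3 (-1.58 and -3.53) were lower against both. Kcnip4, their interacting protein, stood at 1132 to 1489 CPM (median 1354) against 28007 to 33639 CPM (median 29127) in OFF nuclei (log2 -4.50).

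Synaptic adhesion genes, which pattern bipolar wiring, were mostly lower. Against ON cone nuclei 7 of 27 were higher and 18 lower (median log2 -0.67, all genes 0.0012, 13.7% higher and 15.6% lower). Against OFF nuclei 5 of 28 were higher and 20 lower (median -0.81, all genes 0.0082, 15.8% higher and 17.3% lower). In the Prkca-high nuclei the medians were -1.03 and -2.18. Lrrtm4 and Dscaml1, of the Down syndrome cell adhesion family, were higher against both (0.72 and 2.39 for Dscaml1), whereas the related Dscam was higher than in ON cone nuclei (1.63) and far lower than in OFF nuclei (-4.01) at 104 to 144 CPM (median 129) against 1754 to 2237 CPM (median 1990.4). The teneurins also split. Tenm3 gave 0.93 and -0.71, Tenm4 -0.38 and 1.73, and Tenm1 -2.19 and -2.41. Among cadherin genes, Cdh8 was lower against both (-2.72 and -3.64), and Cdh12 higher against both (0.15 and 1.25). Lrrtm3 reversed with the member set against ON cone nuclei (0.71 to -0.97).

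The members were compared with each other after each nucleus was thinned to 3000 UMIs, which left out 488 shallower nuclei and kept 1833. The ratio of variance to mean had a median of 1.10 over 4830 genes. The 15 most variable genes, averaged over the libraries, were led by Zfp804b (41.4, from 37.5 to 47.5 per library) and Cntn5 (37.0, from 35.4 to 39.3). Behind them came Kirrel3, Nxph1, Lrp1b, Pcdh9, Tenm2, Kcnip4, Lsamp, Adarb2, Malat1, Galntl6, Pcdh7, Csmd1 and Slit2. In the Prkca-high nuclei the ratios were lower, 13.7 for Zfp804b and 14.2 for Cntn5, and Pcdh9, a protocadherin, came first with 14.5. The nuclear RNA Malat1 stayed variable within Prkca-high nuclei (11.1), and its level over all members ran from 30325 CPM in IL-27 replicate 5 to 43028 CPM in IL-27 replicate 10, the library pair that also held the least and the most rod RNA.

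IL-27 was then compared with saline over the 3 libraries of each group. No gene passed an adjusted p under 0.05 by the quasi-likelihood test of edgeR among 11391 tested (0%), none did by DESeq2, and none did in the Prkca-high nuclei. At an unadjusted p under 0.05 edgeR gave 416 genes (3.65%), 240 higher (2.11%) and 176 lower (1.55%), and DESeq2 gave 137. The biological coefficient of variation was 0.109, the median SE of a log2 fold change 0.21, and 29 genes had a log2 fold change of over 1 in either direction. Without a filter on low counts 38 genes were called higher and 22 lower, so the count of 0 depends on that filter. The gate decides which nuclei enter each sum, so a nucleus that lost a marker transcript was not compared. The marker genes give the level of the members in each library. Prkca stood at 12110.2, 10989 and 11824 CPM in saline replicates 1, 2 and 6 and 12213, 11485 and 11485 CPM in IL-27 replicates 4, 5 and 10, and Trpm1 at 5102, 4958 and 4868 CPM in the saline libraries against 4932, 5085 and 5214 CPM in the IL-27 libraries. Both groups overlapped in both genes.

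Groups that did not overlap were found for 1014 genes (8.90%), 481 with IL-27 above (4.22%) and 533 below (4.68%), and 9 of those with the smallest p are described here. Lingo2, an immunoglobulin-domain membrane protein gene, stood at 72.4, 54.1 and 72.7 CPM in saline replicates 1, 2 and 6 and 105, 123 and 88.6 CPM in IL-27 replicates 4, 5 and 10. Its log2 fold change was 0.69 ± 0.15 (SE, edgeR, unadjusted p = 0.000373, adjusted p = 0.9997). It was the smallest p of all genes, and it did not pass. B4galt1, a galactosyltransferase, stood at 11.1, 13.4 and 10.6 CPM in the saline libraries against 18.4, 27.8 and 25.3 CPM in the IL-27 libraries (log2 1.03). Ephb1, an ephrin receptor, stood at 4.75, 5.02 and 2.24 CPM in the saline libraries against 9.49, 12.4 and 13.4 CPM in the IL-27 libraries (log2 1.53). IL-27 replicate 10 was the highest library in Ephb1 and IL-27 replicate 5 in B4galt1, and Abcd4, a lysosomal transporter, gave a log2 fold change of 0.72. Among the lower genes, L3mbtl3, a chromatin reader, stood at 87.7, 104 and 96.2 CPM in the saline libraries against 66.4, 72.4 and 57.7 CPM in the IL-27 libraries (log2 -0.53). The immediate early factor Egr1 stood at 11.6, 14.5 and 12.3 CPM in the saline libraries against 3.35, 3.97 and 7.74 CPM in the IL-27 libraries (log2 -1.39 ± 0.35, unadjusted p = 0.00124). Naca, a chaperone of nascent proteins, stood at 76.6, 68.6 and 78.3 CPM in the saline libraries against 54.7, 55.0 and 54.2 CPM in the IL-27 libraries (log2 -0.44). Fstl1 (-1.62) and the ubiquitin ligase gene Pja1 (-0.93) were at low levels. In the Prkca-high nuclei the log2 fold changes were 0.20 for Lingo2, 0.81 for B4galt1 and 0.67 for Abcd4. Those of L3mbtl3, Egr1 and Naca were -0.39, -0.79 and -0.33. Each of these was smaller in size than over all members, whereas that of Pja1 was slightly larger. Ephb1 and Fstl1 had no value in that set. The part of the Prkca-low nuclei in these differences was not tested. Without the low count filter, where 60 of 22164 genes were called (0.271%), Lingo2, B4galt1, Ephb1 and L3mbtl3 passed, with adjusted p from 0.00102 to 0.0396, and no other alternative called any of the 9.

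**Figure D4:**
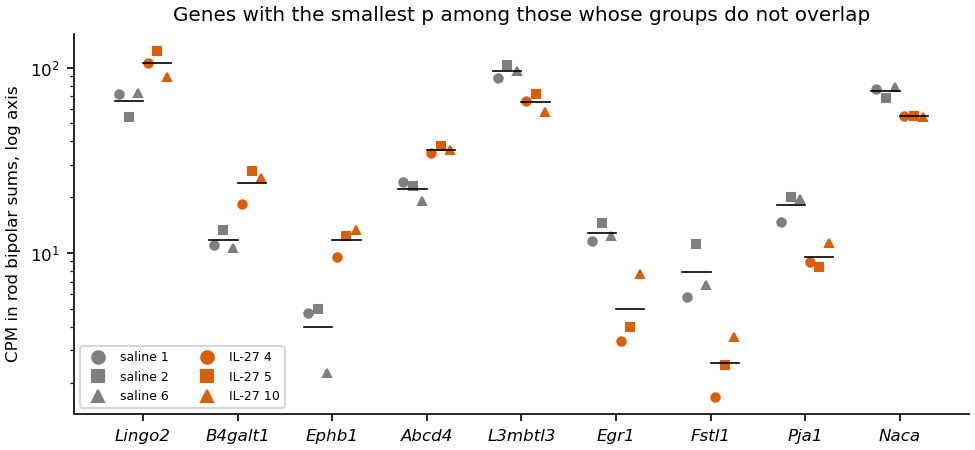
CPM on a log axis (y) in the rod bipolar sums of the 3 saline (grey) and 3 IL-27 (orange) libraries for 9 genes with the smallest p among those whose groups do not overlap (x), with group means as lines. The 4 genes on the left are higher and the 5 on the right lower in IL-27 libraries, and none passed the adjusted test.

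Interferon and STAT response genes are the list nearest to the IL-27 receptor. Of 45 measured genes 30 were tested. In 28 of them the fold change was above 0 and in 2, Isg15 and Sp100, below, with a median log2 fold change of 0.45 (all genes 0.0032, of which 50.7% were above 0). None passed the adjusted test, 5 had an unadjusted p under 0.05 (all genes 3.65%), and in none did the groups separate (all genes 8.90%). The list members share transcription factors and libraries, so they are not independent of each other. The summed level of the 45 genes was 1099, 943 and 715 CPM in saline replicates 1, 2 and 6 and 720.3, 1554 and 1425 CPM in IL-27 replicates 4, 5 and 10. IL-27 replicates 5 and 10 thus lay above all saline libraries, whereas IL-27 replicate 4 lay close to the lowest saline library. Gene by gene, IL-27 replicate 5 exceeded every saline library in 26 of 30 genes, IL-27 replicate 10 in 20 and IL-27 replicate 4 in 0. In 14 genes IL-27 replicate 4 lay below every saline library. Stat2, a factor of the interferon response, stood at 70.2, 65.2 and 41.4 CPM in the saline libraries against 50.8, 113 and 135 CPM in the IL-27 libraries (log2 0.74 ± 0.27, unadjusted p = 0.0138, adjusted p = 0.9997). Stat3 stood at 215, 195 and 209.8 CPM in the saline libraries against 203, 234 and 256 CPM in the IL-27 libraries (log2 0.17). In both genes, IL-27 replicates 5 and 10 were the highest libraries. Tap1, the antigen peptide transporter, stood at 5.81, 3.90 and 3.92 CPM in the saline libraries against 4.46, 12.9 and 10.6 CPM in the IL-27 libraries (log2 1.03). The RNA sensor gene Ddx58 (RIG-I) stood at 54.4, 42.9 and 26.9 CPM in the saline libraries against 42.4, 81.3 and 78.8 CPM in the IL-27 libraries (log2 0.70), and Rnf213, an interferon-induced ligase, at 57.6, 64.7 and 34.7 CPM in the saline libraries against 48.5, 119 and 91.4 CPM in the IL-27 libraries (log2 0.73). Bst2 (tetherin) gave 0.59. In each of these 4 genes IL-27 replicate 4 lay within the range of the saline libraries. Without IL-27 replicate 4 the median log2 fold change was 0.83 over 34 genes, still with 0 called, and without IL-27 replicate 5 it was 0.14 over 30. Without saline replicate 6, the lowest saline library, it was 0.25. With no filter on low counts 4 of 45 members were called, beside 0.271% of all genes in that setting.

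Outside the members, IL-27 replicate 10 was the highest library and IL-27 replicate 4 one of the lowest 2. The list summed to 1285, 1053 and 792 CPM in the saline libraries against 811, 1253 and 1742 CPM in the IL-27 libraries in ON cone bipolar nuclei and to 1199.8, 1330.1 and 976 CPM in the saline libraries against 893, 1484 and 1840.4 CPM in the IL-27 libraries in OFF bipolar nuclei, where 24 of 25 and 22 of 24 genes had a fold change above 0 (medians 0.33 and 0.26). Over all kept nuclei it summed to 1734, 1599 and 1030.0 CPM in the saline libraries against 1136, 1979 and 2067 CPM in the IL-27 libraries. In every library the level over all kept nuclei was above that of the rod bipolar nuclei. Glial markers in the rod bipolar sums were checked beside it. The 12 microglia markers, none at 0, summed to 135, 198 and 152 CPM in the saline libraries against 159, 247 and 145 CPM in the IL-27 libraries, and the 14 Müller glia markers, none at 0, to 706, 686 and 689.9 CPM in the saline libraries against 714, 561 and 580.3 CPM in the IL-27 libraries. The microglia sum was highest in IL-27 replicate 5, where the list was highest too, but in IL-27 replicate 10 it lay within the saline range. Their part in the result was not tested.

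**Figure D5:**
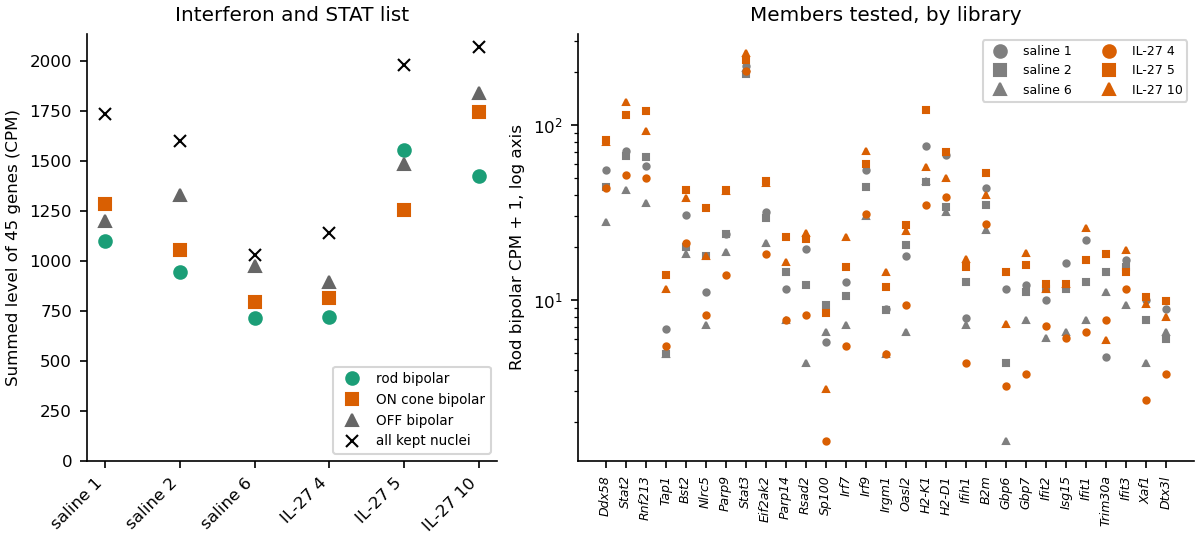
Left, summed level in CPM (y) of the 45 interferon and STAT response genes by library (x) in rod bipolar, ON cone bipolar, OFF bipolar and all kept nuclei. Right, rod bipolar CPM + 1 on a log axis for 29 of the 30 tested members; IL-27 replicates 5 (squares) and 10 (triangles) lie high in most genes and IL-27 replicate 4 (circles) lies among or under the saline libraries in grey.

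Interferon-stimulated genes are known for the interferon-stimulated response element, to which transcription factors of the response bind. The letters GAAANNGAAA were searched on both strands in the 250 bases before each gene start in RefSeq (GRCm38.p6), where the reverse strand reads TTTCNNTTTC. A match was found in 978 of 32851 windows (2.98%), in 258 of the 8680 genes tested here that have a window (2.97%), and in 10 of the 25 tested list members that have one (40%). The windows of Ddx58, Rnf213 and Tap1 held no match. A match describes letters only. The sequences below run 5′ to 3′ on the strand of the gene, with the match in capitals. They belong to the tested list members with a match that had the smallest p for IL-27, so these same data picked them. Stat2 and Bst2 had an unadjusted p under 0.05 by edgeR, and Rsad2, Irgm1 and B2m came next by p. Bst2 and Irgm1 each hold a pair of overlapping matches, so their capitals run longer.

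Stat2 (chr10:128270251-128270310, plus strand): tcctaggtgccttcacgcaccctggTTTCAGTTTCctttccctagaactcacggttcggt
Bst2 (chr8:71537562-71537627, minus strand): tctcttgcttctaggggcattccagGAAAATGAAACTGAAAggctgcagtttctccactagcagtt
Rsad2 (chr12:26456538-26456597, minus strand): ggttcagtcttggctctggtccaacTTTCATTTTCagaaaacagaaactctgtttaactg
Irgm1 (chr11:48871421-48871475, minus strand): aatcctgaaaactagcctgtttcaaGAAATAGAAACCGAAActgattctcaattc
B2m (chr2:122147523-122147582, plus strand): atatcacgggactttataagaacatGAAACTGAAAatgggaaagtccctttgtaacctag

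In distance from the gene start, the match began 222 bases upstream in Stat2, 139 in B2m, 130 and 124 in Bst2, 120 in Rsad2 and 30 and 24 in Irgm1. Beside these sequences, the rod bipolar levels were 18.5, 11.1 and 3.36 CPM in the saline libraries against 7.25, 21.3 and 23.2 CPM in the IL-27 libraries for the antiviral gene Rsad2 (log2 0.63), and 42.8, 34.0 and 24.1 CPM in the saline libraries against 26.2, 52.0 and 38.7 CPM in the IL-27 libraries for B2m, the light chain of MHC class I (log2 0.23). The immunity-related GTPase gene Irgm1 gave a log2 fold change of 0.49. Neither the genes with a match nor those without one separated the groups.

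Of the receptor itself, Il27ra had 0 UMIs in the 2321 members, which allows a share of members with a UMI of up to 0.129%, and 29 UMIs in all kept nuclei. At this depth its presence in rod bipolar nuclei was not detectable. Il6st, the shared chain gp130, had 529 UMIs in the members and stood at 41.2, 53.0 and 48.1 CPM in saline replicates 1, 2 and 6 and 40.2, 60.5 and 53.5 CPM in IL-27 replicates 4, 5 and 10. It was higher than in ON cone (log2 0.48, adjusted p = 0.00204) and OFF nuclei (0.86, adjusted p = 6.62e-05), with no call for IL-27 (log2 0.13). The kinases Jak1 (-0.058), Jak2 (-0.23) and Tyk2 (0.067) were not called either. Il27 itself had 183 UMIs in the members and 5404 in all kept nuclei. In the members it stood at 22.7, 19.0 and 15.1 CPM in the saline libraries against 17.3, 17.8 and 8.44 CPM in the IL-27 libraries. It was not called between the groups (log2 -0.33).

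Translation, energy and stress lists were followed because they bear on a degenerating retina. Cytosolic ribosomal protein genes had fold changes below 0 in 62 of 80 (median log2 -0.10) and nuclear oxidative phosphorylation genes in 62 of 77 (median -0.12), where 49.3% of all genes were below 0, and none was called. The ribosomal sum was 4809, 4162 and 4821 CPM in saline replicates 1, 2 and 6 and 3996, 3768 and 5138 CPM in IL-27 replicates 4, 5 and 10. The oxidative phosphorylation sum was 3456, 2999 and 3471 CPM in the saline libraries against 3002, 2617 and 3650.0 CPM in the IL-27 libraries. In both the groups overlapped, with IL-27 replicate 10 the highest of the 6 libraries, and without IL-27 replicate 5 the counts below 0 were 45 and 38 and the medians -0.022 and 0.00081. Without IL-27 replicate 10 the counts below 0 were 72 and 69 and the medians -0.25 and -0.26. Heat shock genes were below 0 in 12 of 14 (median -0.091), with sums of 1164, 1048 and 1231 CPM in the saline libraries against 1017, 988 and 1084 CPM in the IL-27 libraries. Immediate early genes were below 0 in 7 of 7 (median -0.15), with sums of 192, 189 and 210.4 CPM in the saline libraries against 171, 153 and 191 CPM in the IL-27 libraries. In both lists the groups overlapped through IL-27 replicate 10 alone, which lay above saline replicate 2. Without saline replicate 6 the counts below 0 were 8 of 14 and 4 of 8, with medians of -0.037 and 0.14. Without saline replicate 2 they were 11 of 14 and 7 of 8, with medians of -0.17 and -0.27. Of 16 cell death and stress genes 9 were above and 7 below 0 (median 0.034). The apoptosis inhibitor gene Bcl2l1 stood at 34.3, 26.8 and 31.3 CPM in the saline libraries against 34.6, 36.7 and 38.0 CPM in the IL-27 libraries (log2 0.25). The cascade and synapse lists lay near 0, with median log2 fold changes of -0.022 for the mGluR6 cascade, 0.0038 for the output synapse, -0.012 for GABA and glycine receptors and 0.048 for glutamate receptors. Unlike in the comparisons between populations, gate genes stayed in these lists. The cascade median includes Grm6, Trpm1 and Gpr179, and the glutamate receptor list includes Grik1. Their levels are partly fixed by the choice of nuclei.

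Whether the IL-27 effect in rod bipolar nuclei differed from that in the other bipolar nuclei of the same libraries was tested by an interaction term. Against ON cone nuclei 8 of 11310 genes passed (0.0707%), 6 (0.0531%) with the more positive effect in rod bipolar nuclei and 2 (0.0177%) with the more negative. Against OFF nuclei 2 of 11028 passed (0.0181%), 1 in each direction (0.00907% each). DESeq2 called none of either, and Sgcz, the sixth gene of the first group, fell outside the 5 taken per direction. Slit2, an axon guidance factor, stood at 261, 298 and 262 CPM with saline and 355, 343 and 299 CPM with IL-27 in rod bipolar nuclei, in the order of the replicates above, and at 256, 282 and 259 CPM with saline and 182, 199 and 178 CPM with IL-27 in ON cone nuclei. The groups separated upward in the members and downward in ON cone nuclei, with a difference of 0.78 ± 0.11 on the log2 scale (SE, adjusted p = 0.00177). Its effect within either population alone was not called (log2 0.29 and -0.49). Hdac9, a histone deacetylase, stood at 752, 699.5 and 754 CPM with saline and 713, 606 and 549 CPM with IL-27 in rod bipolar and 332, 313 and 331 CPM with saline and 436, 399.9 and 353 CPM with IL-27 in ON cone nuclei, a difference of -0.54 (adjusted p = 0.0153). Arhgap15, a Rac GTPase-activating protein, stood at 247, 253 and 246 CPM with saline and 241, 324 and 242 CPM with IL-27 in rod bipolar and 128, 127 and 161 CPM with saline and 69.8, 54.0 and 36.2 CPM with IL-27 in OFF nuclei, a difference of 1.51 ± 0.20 (adjusted p = 0.00416). Here the movement lay in the OFF nuclei (log2 -1.39, adjusted p = 0.00801), and the rod bipolar effect was 0.12. Slit2, Hdac9, Tenm1 and Arhgap15 passed with the Prkca-high nuclei alone as well, and March1, Galntl6 and Kctd8 did not. Leaving out nuclei of outlying depth ended the calls of Slit2, Arhgap15, Tenm1, March1, Galntl6 and Kctd8. Removing the marked doublets ended those of Arhgap15, Tenm1, March1, Galntl6 and Kctd8. Arhgap15 and Hdac9 did not pass in every fit without 1 library.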

How the data were processed

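The deposited values were raw UMI counts per gene and nucleus for 6 libraries of retina nuclei. The authors made these counts with Cell Ranger (9.0.1 in the submitters' processing notes, 8.0.1 in the matrix headers) against the 10x mouse reference, and the genome build is not given in the sources used here. Seurat 5.2.1 served the authors' own later steps. Counts of the gated nuclei were summed per library and tested with the quasi-likelihood test of edgeR 4.0.16 (R 4.3.3, limma 3.58.1) after TMM scaling and filterByExpr with a minimum count of 10, with Benjamini-Hochberg adjustment over all genes tested and a threshold of 0.05. Single values were compared by exact permutation. Levels are CPM of the summed counts. Each SE of a log2 fold change is its absolute value divided by the square root of the F statistic of the test.

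The members and gene lists were chosen with earlier results of these data known. Named genes were, between populations, the 12 per direction with the largest fold change among called genes of the same sign in all 6 libraries and 50 CPM or more, for IL-27 the 5 per direction with the smallest p among genes whose groups did not overlap, for interactions up to 5 per direction by p, and for variation the 15 with the highest ratio of variance to mean. Symbols of unnamed transcripts and mitochondrial genes were left out, and some genes that met these rules are not reported here. Positions come from GENCODE M21 by gene ID, which matched 99.8% of 32285 IDs. Antisense and paralogous genes can share UMIs.

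Alternatives were DESeq2 1.42.0 and its size factors in edgeR, other count filters, gates, limits on mitochondrial counts and nuclear depth, doublets removed by Scrublet (scanpy 1.11.5), and each library left out. The doublets removed were the 8% of kept nuclei in each library with the highest Scrublet scores. The Prkca-high set and the Xist covariate were added after seeing the data. On simulated counts with 200 genes changed by 1.5 on the log2 scale, the IL-27 test recovered 174 with 4 false calls among 11105 genes. The interaction test recovered 152 with 11 false calls against ON cone nuclei and 151 with 10 against OFF nuclei. Smaller changes were not simulated, so these counts do not tell how many of them the tests would miss.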

Additional observations from a re-analysis of the deposited data

Results flagged for a closer look

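The effect of IL-27 differed between rod bipolar and other bipolar nuclei in 8 named genes by the interaction test, with the differences given as rod bipolar minus the other population. Slit2, the guidance factor, differed by 0.78 ± 0.11 on the log2 scale (adjusted p = 0.00177, from 2.49e-07 to 0.672 over 16 alternatives, called in 14). March1, a ubiquitin ligase gene, differed by 0.84 ± 0.13 on the log2 scale (adjusted p = 0.00626, from 1.09e-05 to 0.9999 over 16 alternatives, called in 8), and IL-27 replicate 10 stood at 445 CPM against 161 to 236 CPM in the other 5 rod bipolar sums. Galntl6, a glycosyltransferase gene, differed by 2.12 ± 0.36 on the log2 scale (adjusted p = 0.00994, from 1.57e-22 to 0.9999 over 16 alternatives, called in 9), with 80.8, 83.0 and 29.1 CPM with saline and 107, 138 and 70.3 CPM with IL-27 in rod bipolar and 82.1, 105 and 140.5 CPM with saline and 20.3, 66.7 and 35.3 CPM with IL-27 in ON cone nuclei. Kctd8, an auxiliary GABA-B subunit, differed by 0.79 ± 0.15 on the log2 scale (adjusted p = 0.0178, from 0.00129 to 0.9999 over 16 alternatives, called in 8).

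Hdac9, the histone deacetylase, differed by -0.54 ± 0.095 on the log2 scale (adjusted p = 0.0153, from 0.000389 to 0.9999 over 16 alternatives, called in 10). Tenm1, a teneurin, differed by -1.22 ± 0.22 on the log2 scale (adjusted p = 0.0153, from 2.2e-07 to 0.9999 over 16 alternatives, called in 8), with 39.1, 34.6 and 84.5 CPM with saline and 33.5, 27.3 and 33.1 CPM with IL-27 in rod bipolar and 168, 119.8 and 203 CPM with saline and 249.7, 261 and 161 CPM with IL-27 in ON cone nuclei. Arhgap15, compared with OFF nuclei, differed by 1.51 ± 0.20 on the log2 scale (adjusted p = 0.00416, from 3.01e-11 to 0.837 over 16 alternatives, called in 12). Mecom, also compared with OFF nuclei, differed by -6.60 ± 1.07 on the log2 scale (adjusted p = 0.0384, from 7.12e-09 to 0.913 over 11 alternatives, called in 5). Mecom, a zinc-finger factor, stood at 11.6, 31.8 and 2.80 CPM with saline and 0, 0.991 and 1.41 CPM with IL-27 in rod bipolar and 3.81, 0 and 0 CPM with saline and 0, 14.3 and 7.25 CPM with IL-27 in OFF nuclei. Several of these sums are at or near 0, so the fitted difference depends on the prior count and is no bound.

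Leaving out 1 library ended the call of March1 (IL-27 replicates 4 and 10, saline replicate 6), Galntl6 (IL-27 replicate 4), Kctd8 (all 3 IL-27 libraries, saline replicate 6), Hdac9 (all 3 IL-27 libraries, saline replicate 6), Tenm1 (IL-27 replicates 4 and 5, saline replicate 6), Arhgap15 (IL-27 replicate 5) and Mecom (IL-27 replicates 5 and 10, saline replicate 2), and of Slit2 in no case. Leaving out nuclei of outlying depth ended the calls of Slit2 (adjusted p = 0.332), March1 (0.274), Galntl6 (0.938), Kctd8 (0.274), Tenm1 (0.911) and Arhgap15 (0.304). Removing the marked doublets ended the calls of March1 (adjusted p = 0.495), Galntl6 (0.565), Kctd8 (0.976), Tenm1 (0.093) and Arhgap15 (0.837). DESeq2 called none of the 8. In the Prkca-high nuclei the adjusted p was 0.00199 for Slit2, 0.013 for Hdac9, 0.00743 for Tenm1 and 0.00196 for Arhgap15, and it was 0.644 for March1, 0.56 for Galntl6 and 0.708 for Kctd8. Slit2 and Galntl6 were also among the 15 genes that varied most between rod bipolar nuclei.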

How the results depend on the processing

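No paired analysis was possible because the saline replicates (1, 2 and 6) and the IL-27 replicates (4, 5 and 10) share no number. Between populations of the same libraries, the fit with no replicate block (the library left out as a term) gave 1225 higher and 1469 lower against ON cone nuclei and 1472 and 1636 against OFF nuclei. Against ON cone nuclei DESeq2 called 912 genes higher, and the stricter filter called 1063 lower. Against OFF nuclei DESeq2 called 1005 higher, and the stricter filter 1028 higher and 996 lower, with fewer genes tested. Leaving out 1 library gave 1264 to 1327 higher and 1492 to 1569 lower against ON cone nuclei, and 1425 to 1471 and 1574 to 1717 against OFF nuclei. For IL-27 against saline, the call count of 0 became 1 higher without nuclei of outlying depth, 1 lower with the looser gate, and 38 higher and 22 lower without a filter. Every library left out gave 0 in both directions.

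The interaction counts were less stable. Against ON cone nuclei the 6 higher became 0 (DESeq2), 2 (outlying depth out, Prkca-high, doublets removed), 3 (stricter filter) and 18 (no filter), and the 2 lower became 0 (DESeq2, looser gate), 1 (outlying depth out, stricter filter), 4 (Prkca-high), 7 (doublets removed), 11 (stricter gate) and 14 (no filter). Against OFF nuclei the 1 higher became 0 (DESeq2, doublets removed), 2 (looser gate) and 22 (no filter), and the 1 lower became 0 (DESeq2, outlying depth out, Prkca-high, looser gate, mitochondrial limit of 1%, stricter filter, stricter gate) and 4 (no filter). With 1 library left out they ran from 2 to 9, 0 to 10, 0 to 4 and 0 to 1. The cause was not tested.

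The difference in the share of kept nuclei (IL-27 minus saline, in percentage points) was -0.00369 and turned to 0.0143 at the mitochondrial limit of 1%, with -0.361 to 0.402 when 1 library was left out. The share of bipolar nuclei ranged from -1.43 to 3.86 and the median UMIs from -238.5 to -65.5. With 3 libraries a group these tests could not pass 0.05.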
